A study of Mus musculus with 12 samples.

Results

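The genes described here are 9 regulators and markers of epithelial and mesenchymal state, chosen by symbol from the 53819 symbols of the count table: the cadherins Cdh1, Cdh2 and Cdh3, the adhesion molecule Epcam, the intermediate filament gene Vim, and the transcription factors Snai1, Zeb1, Zeb2 and Twist1. All 9 symbols were present once. Their levels were read in 12 libraries from the E14 line of pluripotent mouse cells, cultured in 2 dimensions. Cells received proline together with budesonide for 72 h (called both compounds, 3 libraries), proline alone for 72 h (3 libraries), budesonide alone for 72 h (3 libraries) or no treatment (control, 3 libraries). The labels give no doses. Nothing in them says that replicate libraries came from different cultures, and every p-value is therefore set against library-to-library spread that could be technical. The series concerns cell-cell adhesion and pluripotency in gastruloids, and these flat cultures were made to examine budesonide.

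Cadherins join neighbouring cells through calcium-dependent binding of their outer domains, and catenins tie their tails to the actin skeleton. E-cadherin, the product of Cdh1, is the main cadherin of embryonic stem cells. In an epithelial to mesenchymal transition, as at the primitive streak of the embryo, factors of the Snail, Zeb and Twist families bind E-boxes and repress Cdh1 and other epithelial genes, while Cdh2 and Vim typically come up. Proline is known to move mouse embryonic stem cells towards a later, more mesenchymal-like epiblast state, and budesonide is a synthetic glucocorticoid. The 4 groups therefore ask whether these genes move with proline and whether budesonide alters that.

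The libraries held between 5.30 and 15.9 M counts, the deepest being proline 1. Genes at 0 were most frequent in control 3 (6.57% of the 13852 genes tested) and budesonide 3 (8.43%), and made up 1.39% to 5.77% elsewhere. The 8 stem cell markers were all detected, at a summed level of 2348 to 3493 CPM (the count scaled to library size) in every library. Within that sum the markers moved in opposite directions. With proline Esrrb (118 ± 13.3 CPM with proline and 376 ± 56.7 CPM in control), Zfp42 (55.2 ± 4.99 and 141 ± 30.7) and Nanog (111 ± 17.1 and 217 ± 41.0) fell (SD, n = 3). With both compounds against proline these 3 rose, by 1.52, 1.10 and 1.33 on the log2 scale, and Utf1 and Tdgf1 fell, by 0.85 and 0.80. Utf1 and Tdgf1 also fell against control, by 0.55 and 0.93 with budesonide alone and by 0.51 and 0.59 with both compounds. No other of the 8 was called in those 2 comparisons. The part of the stem cell markers in the differences of Epcam and Vim was not tested. Of 10 fibroblast markers Lum and Postn had no count in any library. Of 10 primitive streak and mesoderm markers Msgn1 had none, and that list summed to 8.04 to 12.9 CPM with both compounds, 4.84 to 11.9 with proline, 6.51 to 8.68 with budesonide and 9.16 to 18.8 in control.

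The Snail and Zeb proteins recognise the E-box CACCTG, searched on both strands. Promoter windows of RefSeq (build GRCm38.p6) were matched by symbol for 5 of the 9 genes. Cdh1, Cdh2, Cdh3 and Zeb1 had no window, so the search did not cover them. The 250 bases before the start site are printed for the 2 genes that passed a test and for Snai1, itself a Snail factor. Each runs 5′ to 3′, and capitals mark this E-box.
Epcam: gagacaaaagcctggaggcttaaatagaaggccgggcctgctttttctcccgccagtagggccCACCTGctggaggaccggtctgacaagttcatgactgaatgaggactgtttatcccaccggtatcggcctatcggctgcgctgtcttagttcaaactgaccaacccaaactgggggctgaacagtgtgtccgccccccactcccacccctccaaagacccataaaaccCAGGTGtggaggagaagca
Vim: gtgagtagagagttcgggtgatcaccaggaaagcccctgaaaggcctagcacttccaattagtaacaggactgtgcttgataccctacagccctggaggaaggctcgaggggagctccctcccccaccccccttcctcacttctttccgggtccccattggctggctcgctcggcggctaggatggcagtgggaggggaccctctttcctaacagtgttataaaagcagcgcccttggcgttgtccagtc
Snai1: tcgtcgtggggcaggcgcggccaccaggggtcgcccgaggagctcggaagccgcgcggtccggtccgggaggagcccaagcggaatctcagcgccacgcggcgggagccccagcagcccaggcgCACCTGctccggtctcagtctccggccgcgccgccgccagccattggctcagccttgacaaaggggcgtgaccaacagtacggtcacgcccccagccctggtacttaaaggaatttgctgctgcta
The windows lie on the plus strand, for Epcam at chr17:87635729-87635978, for Vim at chr2:13574061-13574310 and for Snai1 at chr2:167537945-167538194. The Epcam window held 2 of these E-boxes, beginning 187 and 19 bases before the start site, and the Snai1 window held 1, beginning 126 bases before it. No such letters were in the windows of Vim, Twist1 or the 4 alternative starts of Zeb2. Of all 32851 promoter windows of this length, 17.2% held at least 1. A match of letters is a description and was not tested for binding.

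Cdh1, which encodes E-cadherin, was measured at a high level in every group, and no comparison called it. Its level was 830, 834 and 686 CPM with both compounds, 832, 576 and 874 CPM with proline, 719, 708 and 504 CPM with budesonide, and 591, 725 and 693 CPM in control. The groups overlapped in all 5 pairwise comparisons. The group means ran in the order both compounds (783 ± 84.2 CPM, SD, n = 3), proline (761 ± 161), control (670 ± 69.9) and budesonide (644 ± 121), and no neighbours in that order differed beyond their spread. The log2 difference of proline against control was 0.18 ± 0.15 (SE), with a 95% interval of −0.12 to 0.49. The interval was −0.36 to 0.25 for budesonide against control and −0.26 to 0.34 for both compounds against proline. In bulk RNA a change in the share of cells that express a gene and a change in RNA per cell cannot be told apart.

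Cdh2, which encodes N-cadherin, was low throughout and highest with proline. It had 30, 19 and 35 counts with both compounds, 125, 91 and 48 with proline, 19, 15 and 20 with budesonide, and 12, 16 and 33 in control. These counts correspond to 4.61, 2.78 and 4.67 CPM with both compounds, 8.18, 13.5 and 6.67 CPM with proline, 2.14, 2.32 and 2.63 CPM with budesonide, and 1.96, 3.08 and 5.09 CPM in control. Every proline library lay above every library of the other 3 groups, and the libraries given both compounds also lay above those given budesonide. The difference did not pass the threshold over all genes: the log2 difference of proline against control was 1.47 ± 0.59 (95% interval 0.25 to 2.69, adjusted p = 0.149, range over alternatives 0.0644 to 0.466). For both compounds against proline it was −1.23 ± 0.58 (95% interval −2.43 to −0.02, adjusted p = 0.205, range 0.0858 to 0.549). The highest adjusted p of either comparison came without proline 2, the library with the highest Cdh2 level. Per 100 counts of Cdh1 there were 0.523 ± 0.176 counts of Cdh2 with both compounds, 1.36 ± 0.853 with proline, 0.383 ± 0.122 with budesonide and 0.497 ± 0.210 in control (SD, n = 3). In proline 2 this ratio was 2.34, against 0.983 and 0.763 in the other proline libraries. The 3′ end kit counts fragments near the transcript end, and the annotated transcripts are of like length (4843 bases for Cdh2 and 4430 for Cdh1), so the counts were not divided by length.

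Cdh3, which encodes P-cadherin and is the coding gene next to Cdh1, had its higher means in the 2 groups that received budesonide, without passing the test. It had 22.0, 25.3 and 18.7 CPM with both compounds, 11.6, 16.3 and 15.3 CPM with proline, 19.5, 20.6 and 26.9 CPM with budesonide, and 15.4, 18.9 and 7.86 CPM in control. The budesonide libraries lay above the control libraries, and the libraries given both compounds lay above the proline libraries. The log2 difference was 0.67 ± 0.31 for budesonide against control (adjusted p = 0.232) and 0.62 ± 0.31 for both compounds against proline (adjusted p = 0.239), and neither was called. Without control 3 and budesonide 3, the lowest control and the highest budesonide library, the first had an adjusted p of 0.821 and a log2 difference of 0.23. Levels of Cdh3 and Cdh1 had a Pearson r of −0.14 over the 12 libraries, which fall into 4 groups.

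**Figure D1:**
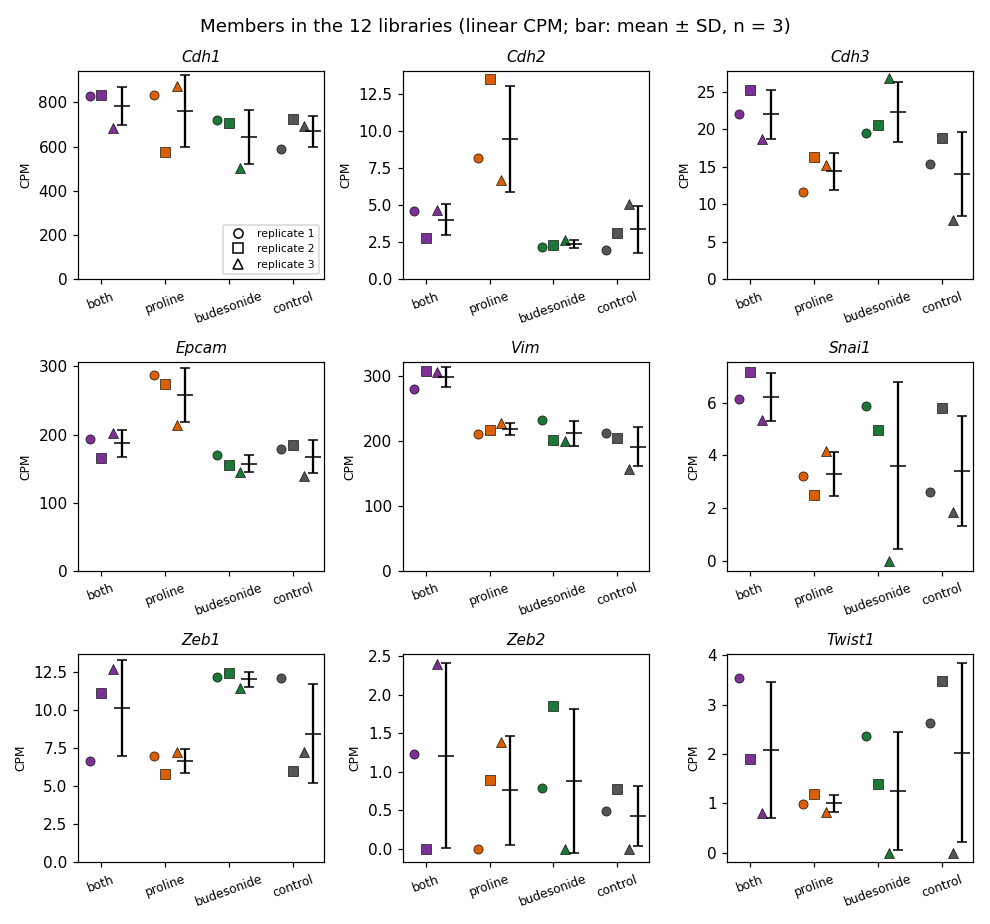
Level of each of the 9 genes in the 12 libraries, on a linear CPM axis with its own scale per panel; points are libraries, marked by replicate number, and the bar beside them is the mean ± SD (n = 3). Proline libraries sit highest for Cdh2 and Epcam, and libraries given both compounds sit highest for Vim. Snai1, Zeb2 and Twist1 each have at least 1 library at 0.

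Epcam, an adhesion molecule of epithelia and embryonic stem cells, rose with proline and fell when budesonide was added to proline. Its level was 194, 165 and 202 CPM with both compounds, 287, 275 and 213 CPM with proline, 170, 155 and 146 CPM with budesonide, and 179, 185 and 139 CPM in control. Every proline library lay above every library of the other groups, while the other 3 groups overlapped. Proline cells averaged 259 ± 39.7 CPM and control cells 167 ± 24.6 CPM (SD, n = 3), a log2 difference of 0.63 ± 0.14 (edgeR adjusted p = 0.00578, range over alternatives 0.000443 to 0.0499). That is a level 54.5% above control. Cells given both compounds averaged 187 ± 19.5 CPM, and against proline the log2 difference was −0.47 ± 0.14 (adjusted p = 0.0344, range 0.0103 to 0.182). This second call ended without proline 1 (adjusted p = 0.178), proline 2 (0.119), both 1 (0.0864) or both 2 (0.182), and with offsets for transcript length and GC content (0.0746). The comparisons with control and with both compounds share the proline libraries. Against control, cells given both compounds differed by 0.16 ± 0.14 (95% interval −0.13 to 0.45) and cells given budesonide alone by −0.09 ± 0.14 (95% interval −0.38 to 0.20). Summed levels of 8 extraembryonic endoderm markers were also highest with proline, at 22.9 to 24.9 CPM with both compounds, 27.7 to 33.2 with proline, 12.9 to 22.3 with budesonide and 9.56 to 14.7 in control. The 8 markers were detected in all groups. Of them edgeR called Sox17 higher with proline, at 2.30 ± 0.250 CPM against 0.0514 ± 0.0890 CPM in control (adjusted p = 0.0442). With budesonide alone it was also called higher than control, at 2.74 ± 2.17 CPM (adjusted p = 0.0383). In these comparisons limma-voom called 0 of the 8 markers, and DESeq2 called 0 with budesonide alone. The part of these markers in the Epcam difference was not tested.

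Vim, which encodes the mesenchymal intermediate filament vimentin, was highest in cells given both compounds. It had 281, 307 and 307 CPM with both compounds, 210, 217 and 228 CPM with proline, 233, 202 and 200 CPM with budesonide, and 212, 205 and 157 CPM in control. The libraries given both compounds lay above all 9 others, and the other 3 groups overlapped. Cells given both compounds averaged 298 ± 15.2 CPM and control cells 191 ± 30.2 CPM (SD, n = 3), a log2 difference of 0.64 ± 0.13 (adjusted p = 0.00224, range over alternatives 1.91e-05 to 0.0171). Vim rose against proline as well, where the level was 218 ± 8.75 CPM, by a log2 difference of 0.45 ± 0.13 (adjusted p = 0.0222, range 0.00432 to 0.0953). That call ended without proline 1 (adjusted p = 0.0953), proline 2 (0.0664), both 2 (0.0902) or both 3 (0.0703). Against budesonide, at 212 ± 18.6 CPM, the log2 difference was 0.50 ± 0.13 with an adjusted p of 0.0473, close to the threshold (range 0.00656 to 0.197). It ended without each of the 6 libraries in turn, at adjusted p-values of 0.107 to 0.169 for those of both compounds and 0.0546 to 0.151 for those of budesonide. It ended too with DESeq2 size factors (0.0518), with only the 6 libraries compared (0.0602), without control 3 and budesonide 3 together (0.0563), with the replicate block (0.076) and with length and GC offsets (0.197).

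Neither compound alone was called for Vim. Against control the log2 difference was 0.19 ± 0.13 with proline (95% interval −0.07 to 0.45) and 0.15 ± 0.13 with budesonide (95% interval −0.11 to 0.41). Fibroblasts also express vimentin. The 10 fibroblast markers summed to 3.69 to 7.60 CPM with both compounds, 20.1 to 26.3 with proline, 7.59 to 13.04 with budesonide and 11.95 to 22.7 in control. Among them Thy1 stood at 1.21 ± 0.162 CPM with both compounds, 11.9 ± 5.27 CPM with proline and 8.12 ± 1.19 CPM in control (SD, n = 3). By edgeR it fell with both compounds against proline (adjusted p = 0.000976) and against control (adjusted p = 0.00648). Against control limma-voom called 0 of the 10 markers. Lum, Postn and Prrx1 had no count with both compounds. Markers of neuroectoderm, which also expresses vimentin, summed to 78.3 to 99.1 CPM with both compounds, 33.6 to 49.6 with proline, 68.0 to 74.9 with budesonide and 50.9 to 61.1 in control. Of those 8 markers Pax6 (22.2 ± 7.50 CPM with both compounds and 4.32 ± 1.34 CPM in control, adjusted p = 0.000819) and Map2 (9.29 ± 1.38 and 2.18 ± 1.38 CPM, adjusted p = 0.0464) rose with both compounds against control. In that comparison limma-voom called 1 of the 8. Tubb3 rose against proline, at 53.5 ± 2.88 CPM with both compounds and 23.6 ± 3.35 CPM with proline (adjusted p = 0.000200). Zic1 and Neurog2 were at 0 with both compounds and with budesonide, and averaged under 1 CPM in the other groups. The part of the fibroblast and neuroectoderm markers in the Vim difference was not tested.

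Of the 4 transcription factors Snai1, Zeb1 and Twist1 were tested and not called in any comparison, with intervals that all included 0, and Zeb2 had too few counts to be tested. Snai1, which encodes the repressor Snail, had 40, 49 and 40 counts with both compounds, 49, 17 and 30 with proline, 52, 32 and 0 with budesonide, and 16, 30 and 12 in control. The 3 libraries given both compounds lay above the proline libraries, at 6.22 ± 0.916 CPM and 3.30 ± 0.830 CPM (SD, n = 3). Their log2 difference was 0.91 ± 0.86 (95% interval −0.87 to 2.69, adjusted p = 0.595). Budesonide 3 had no count, which allows up to 3 counts or 0.395 CPM in that library, while budesonide 1 and 2 stood at 5.86 and 4.96 CPM.

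Zeb1, a zinc finger repressor of Cdh1, was measured at 6.61, 11.1 and 12.7 CPM with both compounds, 7.0, 5.77 and 7.23 CPM with proline, 12.2, 12.4 and 11.5 CPM with budesonide, and 12.1, 5.98 and 7.25 CPM in control. Budesonide libraries lay close together, while control libraries and those given both compounds spread more widely. No pair of groups compared was free of overlap, and the log2 difference of proline against control was −0.34 ± 0.40 (95% interval −1.17 to 0.49). Zeb1 and Cdh2 levels had a Pearson r of −0.72 over the 12 libraries, a description only since the libraries fall into groups and Cdh2 counts are low.

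Twist1, a basic helix-loop-helix factor of mesoderm, had 23, 13 and 6 counts with both compounds, 15, 8 and 6 with proline, 21, 9 and 0 with budesonide, and 16, 18 and 0 in control. The libraries at 0 were control 3 and budesonide 3, those with the most genes at 0, where 0 allows up to 0.463 and 0.395 CPM. Its intervals were wide, from −3.93 to 1.93 on the log2 scale for proline against control. Zeb2, the other Zeb repressor, did not pass the filter on low counts and was not tested. It had 8, 0 and 18 counts with both compounds, 0, 6 and 10 with proline, 7, 12 and 0 with budesonide, and 3, 4 and 0 in control, so 1 library of each group was at 0. Proline 1, the deepest library, was among them, and 0 counts there allow up to 0.196 CPM. Overlapping genes are annotated at Zeb1 (Gm10125) and Zeb2 (Zeb2os and Mir5129). The strand setting of the counting is not given in the sources used here, so reads of such partners cannot be told apart.

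**Figure D2:**
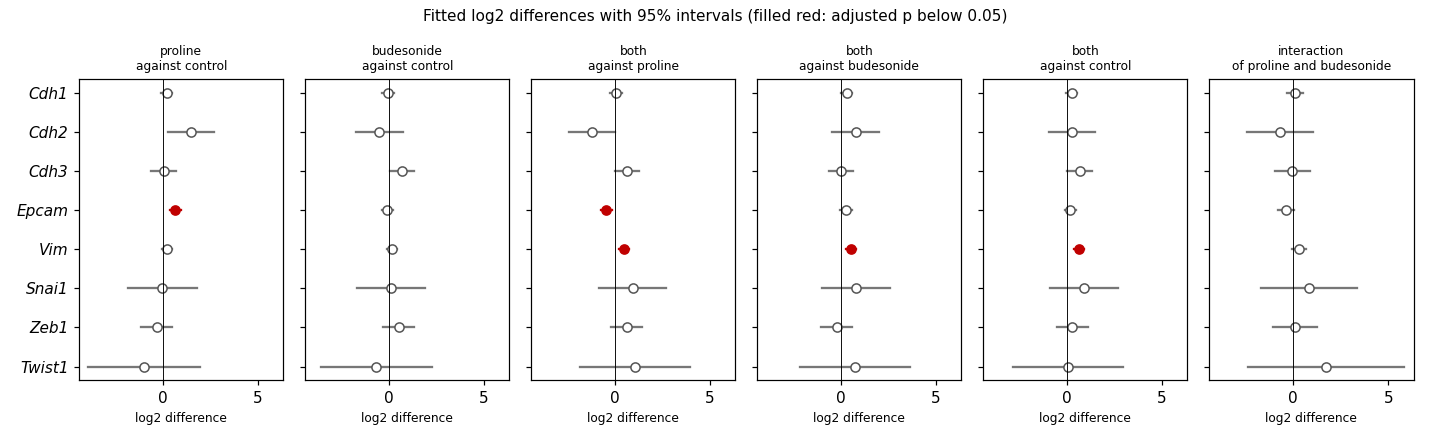
Fitted log2 difference (x axis) of the 8 tested genes in each of 6 comparisons, with 95% intervals; filled red points have an adjusted p below 0.05. Epcam is filled for proline against control (0.63) and both against proline (−0.47), Vim is filled in the 3 comparisons of both compounds, and the intervals of Snai1 and Twist1 are the widest.

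Of the 9 genes 8 were tested. With proline 1 of them rose (Epcam) and none fell, where 7.88% of all tested genes were called (3.17% higher and 4.71% lower). The libraries of the groups did not overlap for 2 of the 8 (Cdh2 and Epcam), against 26.7% of all genes. With budesonide alone the edgeR test called 0 of the 8, DESeq2 and limma-voom also called 0, and 1 (Cdh3) had an unadjusted p below 0.05. The background there was 6.51% called (2.51% higher and 4% lower), and 1 of the 8 (Cdh3) did not overlap against 23.7% of all genes. For both compounds against proline 1 rose (Vim) and 1 fell (Epcam), with 10.1% of all genes called (5.83% higher and 4.27% lower). That split of 808 higher and 591 lower turned to 532 higher and 599 lower with length and GC offsets. Here 5 of the 8 (Cdh2, Cdh3, Epcam, Vim and Snai1) did not overlap, against 31.9% of all genes. Set against budesonide, both compounds together gave a call for Vim alone of the 8 (1.47% of all genes called, 0.874% higher and 0.592% lower, a split of 121 and 82 that turned to 57 and 64 with offsets), and Cdh2 and Vim did not overlap (19.4% of all genes). Set against control, Vim alone of the 8 was called (7.17% of all genes called, 3.34% higher and 3.83% lower) and alone did not overlap (28.4%). The median log2 difference of the 8 was 0.11 for proline against control and 0.53 for both against proline, where the median of all tested genes was −0.01 and 0.02. It was 0.02 for budesonide against control, 0.39 for both against budesonide and 0.25 for both against control, where all tested genes had 0.01. For both against proline, the low-count Snai1 (0.91 ± 0.86) and Twist1 (1.04 ± 1.41) lay above that median and were not called.

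The interaction compares the effect of proline in the presence of budesonide with its effect in the absence of budesonide. It was not called for any of the 8 genes by edgeR, DESeq2 or limma-voom, 0 had an unadjusted p below 0.05, and 0.469% of all genes were called (0.411% higher and 0.0578% lower, a split of 57 and 8 that was 24 and 9 with offsets). Its estimate was −0.38 ± 0.20 for Epcam (95% interval −0.79 to 0.04, adjusted p = 0.629) and 0.30 ± 0.18 for Vim (95% interval −0.06 to 0.67, adjusted p = 0.675). A difference in the response of Epcam or Vim was thus not shown, nor was its absence.

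Genes were also ranked by the likeness of their pattern to 4 of the members, as Pearson r of log2 CPM over the 12 libraries among the tested genes with a mean of at least 10 CPM. Nearest to Cdh1 were Hspbp1 (r = 0.93), Eif2b2 (0.91) and Mfap1b (0.90). Nearest to Cdh2 were Pcbp4 (0.92), Isy1 (0.92) and Ubap2 (0.90), of which Pcbp4 averaged 31.8 CPM with both compounds, 55.4 with proline, 25.6 with budesonide and 27.0 in control. Epcam was most like Rrm2 (0.94), Zcrb1 (0.94) and Jtb (0.91), and Vim was most like Wfdc2 (0.96), Alkbh5 (0.91) and Swap70 (0.90). Wfdc2 averaged 25.9 CPM with both compounds, 14.2 with proline, 13.7 with budesonide and 8.93 in control. Among the members themselves Cdh2 and Epcam had r = 0.76, Snai1 and Twist1 0.75, Snai1 and Cdh1 0.74, and Cdh2 and Vim −0.04. These values describe 12 libraries in 4 groups and carry no test. Snai1 and Twist1 counts are low, and both genes had no count in budesonide 3, where Cdh1 was at its lowest (504 CPM). In control 3 Twist1 had no count and Snai1 had 12. The part of these 2 libraries in the r values of Snai1 was not tested.

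Genes of adherens junctions, catenins among them, had calls in both directions, though none fell with budesonide alone. Of 20 catenins and adherens junction genes 17 were tested. When budesonide was added to proline 4 rose and 2 fell (10.1% of all genes called, 5.83% higher and 4.27% lower), with a median log2 difference of 0.39 (0.02 over all genes). Plakoglobin (Jup), the catenin shared by adherens junctions and desmosomes, had 136, 140 and 107 CPM with both compounds, against 63.3, 50.3 and 68.1 CPM with proline, a log2 difference of 1.08 ± 0.16 (adjusted p = 8.32e-05). Lima1, an actin-binding partner of alpha-catenin, rose by 0.71 ± 0.13 (adjusted p = 0.000818). Plekha7, which anchors microtubules at the junction, and the alpha-catenin gene Ctnna1 were the others that rose, but both calls ended when single libraries were left out. For Plekha7 these were proline 1 or both 2 (highest adjusted p 0.0619). For Ctnna1 they were both 3 or any proline library (highest 0.217). The Ctnna1 call also ended with no filter, with the replicate block and with offsets. Zyxin (Zyx), an adaptor of actin at adhesion sites, fell by 1.75 on the log2 scale (adjusted p = 0.00981), and that call ended without both 1 or both 2 (highest 0.0711). The member that fell besides it was the catenin-like Ctnnal1, at −0.71 ± 0.16.

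With proline against control 1 of the 17 rose and 1 fell, and 15 were not called (7.88% of all genes called, 3.17% higher and 4.71% lower). Zyx stood at 25.6 ± 3.97 CPM with proline and 6.33 ± 2.91 CPM in control (SD, n = 3), a log2 difference of 2.01 ± 0.44 (adjusted p = 0.00473). Ctnna1 stood at 233 ± 20.4 and 318 ± 4.68 CPM in the same order, at −0.44 ± 0.12 (adjusted p = 0.0190), and its call ended without control 1, control 2, proline 1 or proline 2 (highest 0.106). With budesonide alone 2 rose, Jup and Plekha7 (6.51% of all genes called, 2.51% higher and 4% lower), whose calls both ended without control 3 and budesonide 3 together and had adjusted p-values of up to 0.115 and 0.246. With both compounds 4 rose and 1 fell against control (7.17% of all genes called, 3.34% higher and 3.83% lower), with Lima1 at 0.85 ± 0.13 (adjusted p = 0.000238). The edgeR test called 0 of this list for both compounds against budesonide (3 at an unadjusted p below 0.05, 1 by DESeq2, 0 by limma-voom) and 0 in the interaction (2 at an unadjusted p below 0.05, 0 by either other tool). Of 15 other classical cadherins 4 passed the filter, and edgeR, DESeq2 and limma-voom called 0 in every comparison, with 1 at an unadjusted p below 0.05 in the comparison of both compounds with proline.

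Of 20 epithelial regulators 19 were tested. With proline 2 rose, 4 fell and 13 were not called (7.88% of all genes called, 3.17% higher and 4.71% lower), with a median of −0.16 (−0.01 over all genes). Klf5, a zinc finger factor of naive cells and epithelia, stood at 621 ± 27.3 CPM with proline and 1064 ± 76.2 CPM in control (SD, n = 3), a log2 difference of −0.78 ± 0.10 (adjusted p = 8.55e-06). Its relative Klf4 fell by 1.47 (adjusted p = 6.84e-07) and the tight junction claudin Cldn4 fell by 1.05 (adjusted p = 0.00352), while the tetraspanin Cd9 was the other that fell. Claudin Cldn6 rose, at 111 ± 31.5 CPM with proline and 57.1 ± 6.98 CPM in control (adjusted p = 0.00235). Esrp1, an epithelial splicing factor, rose by 0.88 ± 0.25, and its call ended without control 1, control 3, proline 1 or proline 2 (highest adjusted p 0.111). When budesonide was added to proline 5 rose and none fell (10.1% of all genes called, 5.83% higher and 4.27% lower; median 0.26), namely Klf4, Klf5, Cldn4, Cd9 and the epithelial factor Elf3. Elf3 stood at 36.6 ± 2.41 CPM with both compounds and 14.6 ± 5.51 CPM with proline (SD, n = 3), a log2 difference of 1.34 ± 0.28 (adjusted p = 0.00259). With budesonide alone 2 rose, Elf3 and Klf5 (6.51% of all genes called, 2.51% higher and 4% lower). The Elf3 call ended without control 3 and budesonide 3 together (adjusted p = 0.110). The Klf5 call ended without control 1, control 2 or budesonide 1 (highest 0.163). It also ended with no filter, only the 6 libraries compared, the replicate block and offsets. Against control, with both compounds 1 rose (Elf3) and 1 fell (7.17% of all genes called, 3.34% higher and 3.83% lower). Spint1 fell by 0.85 ± 0.18 (adjusted p = 0.00449), under every alternative. Against budesonide 1 fell, again Spint1, and none rose (1.47% of all genes called, 0.874% higher and 0.592% lower). This call (adjusted p = 0.0451, up to 0.185) ended without any single library.

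**Figure D3:**
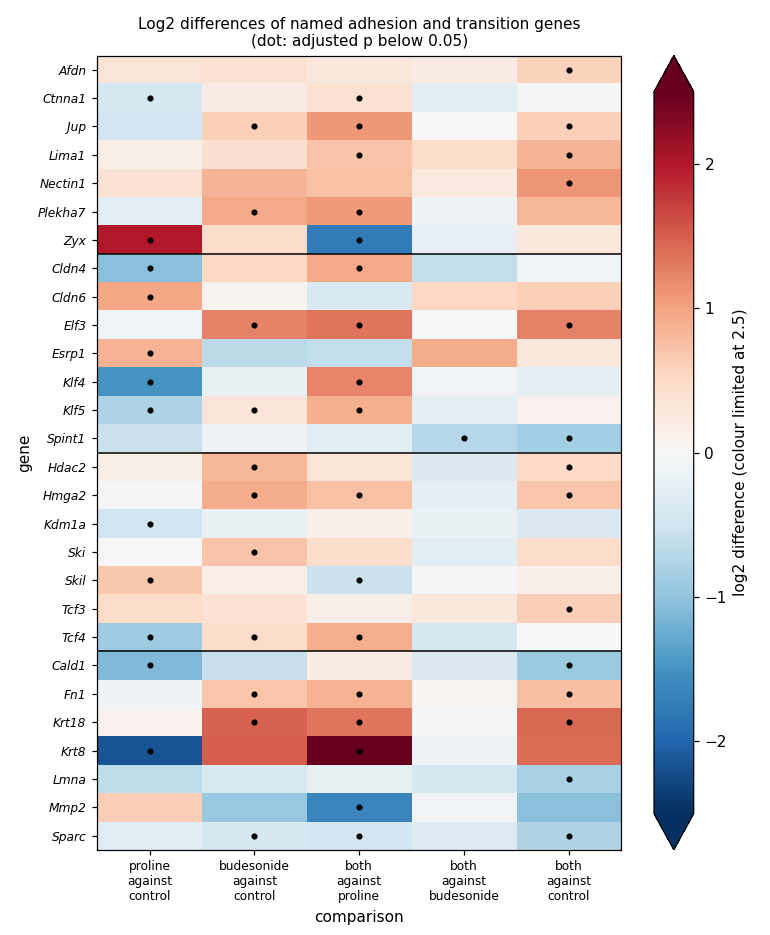
Log2 differences of the 28 named genes of the adhesion and transition lists (rows) in 5 comparisons (columns), red for higher and blue for lower, with a dot where the adjusted p was below 0.05; lines separate junction partners, epithelial regulators, other transition regulators, and mesenchymal markers with filaments. Jup, Klf4, Klf5, Tcf4 and Fn1 are red for both against proline, and Zyx is red for proline and blue for both against proline.

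Of 32 other transition regulators 23 were tested. With proline 1 rose, 2 fell and 20 were not called (7.88% of all genes called, 3.17% higher and 4.71% lower), led by the E-protein Tcf4 at 118 ± 3.29 CPM with proline and 218 ± 33.7 CPM in control (SD, n = 3; log2 difference −0.89 ± 0.13, adjusted p = 4.74e-05). The transforming growth factor beta antagonist Skil rose by 0.66 ± 0.15, though not without proline 2 (adjusted p = 0.0538), and the histone demethylase Kdm1a fell at the margin (adjusted p = 0.0473, up to 0.248 over alternatives). With budesonide alone 4 rose and none fell, with 19 not called (6.51% of all genes called, 2.51% higher and 4% lower). Hmga2, a chromatin protein that promotes Snai1 and Twist1 expression in epithelial cells, stood at 105 ± 14.4 CPM with budesonide and 55.3 ± 4.78 CPM in control (adjusted p = 0.000695), and Hdac2 and Ski rose by 0.84 ± 0.14 and 0.71 ± 0.15. Tcf4 was the other that rose, by 0.45 ± 0.12 (adjusted p = 0.0274, up to 0.348 over alternatives). Its call ended without control 2, control 3, budesonide 1 or budesonide 3. It also ended without control 3 and budesonide 3 together, with only the 6 libraries compared and with offsets. Adding budesonide to proline, 2 rose and 1 fell (10.1% of all genes called, 5.83% higher and 4.27% lower): Tcf4 and Hmga2 rose, by 0.90 ± 0.13 and 0.73 ± 0.16, and Skil fell by 0.53 (adjusted p = 0.0233, up to 0.168, and not called without proline 2, both 1 or both 2). With both compounds against control 3 rose and none fell (7.17% of all genes called, 3.34% higher and 3.83% lower). Hmga2 rose by 0.69 ± 0.16 (adjusted p = 0.00729), under every alternative. Tcf3 rose by 0.62 ± 0.16 (adjusted p = 0.0221, up to 0.185) and Hdac2 by 0.48 ± 0.14 (adjusted p = 0.0346, up to 0.181). The calls for Tcf3 and Hdac2 ended without control 1, control 3, both 1 or both 2.

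Of 25 mesenchymal markers and filament genes 20 were tested, and with proline none rose, 2 fell and 18 were not called (7.88% of all genes called, 3.17% higher and 4.71% lower; median −0.20). Those were the keratin Krt8 and the actin-binding Cald1, which stood at 52.1 ± 5.36 CPM with proline and 112 ± 36.8 CPM in control (adjusted p = 0.000497). The Krt8 call ended with limma-voom (adjusted p = 0.155), with only the 6 libraries compared, and without control 2 or proline 1. Against proline alone, with both compounds 3 rose and 3 fell (10.1% of all genes called, 5.83% higher and 4.27% lower; median −0.17). Fibronectin (Fn1) stood at 675 ± 17.1 CPM with both compounds and 367 ± 55.6 CPM with proline (log2 difference 0.88 ± 0.11, adjusted p = 1.72e-05), and the epithelial keratins Krt8 and Krt18 rose by 3.56 ± 0.52 and 1.34 ± 0.31. Krt8 stood at 12.7 ± 4.73 CPM with both compounds, 1.10 ± 0.38 with proline and 4.85 ± 1.74 in control (SD, n = 3). Both its rise here and its fall with proline thus rest on a very low proline level. The matrix protein Sparc, the protease Mmp2 and the integrin Itgb1 fell, Sparc by 0.48 (adjusted p = 0.00776). Mmp2 fell by 1.65 (adjusted p = 0.0205, up to 0.084). The Mmp2 call ended with no filter and without proline 2, proline 3 or any library of both compounds. The 8 trophoblast markers, a cell type that expresses these keratins, summed to 94.9 to 112 CPM with both compounds, 37.9 to 52.1 with proline, 78.9 to 105 with budesonide and 52.7 to 58.6 in control. Tfap2c made up most of that sum and rose with both compounds, at 78.4 ± 10.99 CPM with both compounds and 30.2 ± 5.89 CPM with proline (SD, n = 3, adjusted p = 0.000105). Plac1 was also called higher, at 4.38 ± 3.97 CPM with both compounds and no count with proline (adjusted p = 0.0208). The libraries of these groups still overlapped for Plac1, and limma-voom called 1 of the 8 markers in that comparison. Elf5 had 1 count in all 12 libraries. The part of these markers in the keratin differences was not tested. With budesonide alone Fn1 (0.69 ± 0.11, adjusted p = 0.000566) and Krt18 (1.47 ± 0.32, adjusted p = 0.00544) rose under every alternative run, and Sparc fell by 0.44 (adjusted p = 0.0197, up to 0.178), so 2 rose and 1 fell (6.51% of all genes called, 2.51% higher and 4% lower). With both compounds against control 2 rose and 3 fell (7.17% of all genes called, 3.34% higher and 3.83% lower). Fn1 and Krt18 rose, by 0.75 ± 0.11 and 1.44 ± 0.32, Sparc and Cald1 fell by 0.76 and 0.93, and Lmna, which encodes nuclear lamin A, fell by 0.82 (adjusted p = 0.0300, up to 0.129). The call for Sparc with budesonide alone ended without control 3, budesonide 1 or budesonide 2. It also ended without control 3 and budesonide 3 together, with only the 6 libraries compared and with offsets. The call for Lmna ended without control 2, control 3 or any library of both compounds.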

How the data were processed

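Total RNA was made into QuantSeq 3′ end libraries, per the labels' protocols. Per the submitters' processing notes, the build was GRCm39 and the tools included STAR 2.7.5c, cutadapt 2.5 and featureCounts 2.0. The authors deposited whole-number counts per gene symbol. A deposited table of scaled counts was not used here.

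Tests used edgeR 4.0.16 (R 4.3.3): filterByExpr (minimum count 10, minimum total 15), TMM scaling, and the quasi-likelihood F test over all 12 libraries with 1 coefficient per group (8 residual degrees of freedom). Benjamini-Hochberg adjustment ran over the 13852 genes tested, and a gene was called, or is said to have risen or fallen, below 0.05. Log2 differences are from that fit, SE is the absolute difference over the square root of F, and intervals use the test's degrees of freedom. CPM uses the TMM-scaled total. A count of 0 is read as up to 3 counts. Floors cover counting error only. The fit was tested on simulated data.

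The 9 genes and the gene lists were chosen with earlier results of these data known. All 9 genes are named. From the lists, at most 4 called genes with groups that did not overlap were named per list and comparison, by size of change. Called genes outside that rule were named after their values were seen. These were Cd9, Ctnnal1, Itgb1 and, in 1 comparison each, Plekha7, Ctnna1, Sparc, Klf5 and Fn1. Klf5 in the interaction and single cell type markers were also named after their values were seen. Alternatives were DESeq2 size factors, no filter, DESeq2 1.42.0, limma-voom (limma 3.58.1), only the libraries compared, a replicate block, offsets for transcript length and GC content, and leaving libraries out.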

Additional observations from a re-analysis of the deposited data

Results flagged for a closer look

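The effect of proline on Klf4, a zinc finger factor of the naive state and of epithelia, differed between cells with and without budesonide. The interaction was 1.39 ± 0.21 (SE) on the log2 scale (adjusted p = 0.00129, range over alternatives 1.87e-07 to 0.00668). Klf4 averaged 142 ± 11.2 CPM with both compounds, 60.9 ± 4.43 with proline, 151 ± 23.0 with budesonide and 169 ± 29.1 in control (SD, n = 3). Of the adhesion and transition lists edgeR called the interaction for Klf4 alone, while DESeq2 and limma-voom each called 2 genes of the epithelial list. It was not particular to Klf4, since edgeR also called it for 3 of the 8 stem cell markers and not for the other 5. These were Zfp42 (1.56 ± 0.23, adjusted p = 0.000949), Esrrb (1.55 ± 0.19, adjusted p = 0.000162) and Nanog (1.01 ± 0.20, adjusted p = 0.0173). In edgeR Klf5 had an interaction of 0.56 ± 0.14 (adjusted p = 0.0677).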

How the results depend on the processing

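For both compounds against proline the count of called members, 2 as reported, was 1 with transcript length and GC offsets and 0 to 2 when single libraries were left out. For both compounds against budesonide the count, 1 as reported, was 0 with DESeq2 size factors, with only the 6 libraries compared, with the replicate block, without control 3 and budesonide 3 together, with length and GC offsets, and without any single library (0 to 0). The count stayed at 1 for proline against control and for both against control, and at 0 for budesonide against control and for the interaction, under every alternative run. No called direction reversed. Of the 56 calls of the 28 named list genes, 32 held under every alternative and 24 did not. The cause of the lost calls was not tested.

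Calls over all genes moved by more than 1.5 times in these cases. For budesonide against control, 902 became 493 with only the 6 libraries, 575 without control 3 and budesonide 3, and 599 with offsets. For both against budesonide, 203 became 435 with DESeq2, 354 with no filter, 120 with only the 6 libraries, 128 with the replicate block and 121 with offsets. For the interaction, 65 became 162 with DESeq2, 134 with no filter and 33 with offsets. Leaving out single libraries gave 674 to 887 for proline against control (1091 as reported), 836 to 1095 for both against proline (1399), 535 to 789 for both against control (993) and 80 to 171 for both against budesonide. With offsets the split of higher against lower calls went to 532 and 599 for both against proline, against 808 and 591 as reported, to 57 and 64 for both against budesonide, against 121 and 82 as reported, and to 24 and 9 for the interaction, against 57 and 8.

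The labels state no pairing of libraries by replicate number, and none was visible in the values. That does not show that same-numbered libraries were handled apart. Same-numbered libraries of different groups had correlations of their deviations from the group means of −0.04 to 0.05 over 15 pairs, and 4 of 15 matched their own number best. Low counts limit Cdh2, Snai1, Zeb2 and Twist1 most.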
